A study of Mus musculus with 2 samples.

Results

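The urea cycle and ammonia genes described here were 9 genes chosen by symbol: *Cps1*, *Otc*, *Ass1*, *Asl*, *Nags*, *Slc25a15*, *Gls2*, *Glul* and *Oat*. Their transcripts were found in the deposited transcript table by gene symbol, and the estimated read counts were summed over the transcripts of each symbol. All 9 were in the table, out of 45777 genes, and all 9 passed the count filter (10 or more counts in either library), as did 15857 genes in all. Liver RNA of C57BL/6 mice fed a high-fat diet (HFD) was compared between a library labelled as GFP overexpression (AAV-GFP, the control) and a library labelled as *Wee1-AS* overexpression (AAV-*Wee1-AS*). By the study's account, C57BL/6 N mice started the HFD at an age of 7 weeks and had it for 18 weeks, and an adeno-associated virus (AAV) was injected retro-orbitally after week 13, 5 weeks before the end. The vector was pAAV-MCS with an AAV9 serotype and a CMV promoter, which is not restricted to hepatocytes. *Wee1-AS* is a long noncoding RNA read in antisense to *Wee1*, and its own level was not analysed here. Whether RNA of several mice was pooled is not stated in the sources used here. Low-fat diet libraries were not analysed here, so both libraries carry the HFD and a virus, and neither shows the pathway without them.

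The series text mentions 4 liver samples, and 2 libraries were analysed here, 1 per group, so no test, p-value or spread between mice can be given. The libraries held 55466182 (AAV-GFP) and 48079335 (AAV-*Wee1-AS*) estimated counts. Each ratio below is AAV-*Wee1-AS* over AAV-GFP after scaling the libraries, on the log2 scale, where a value of 1 is a 2-fold difference. Its interval is an exact 95% interval of the ratio of the 2 counts. It covers counting error only, it treats PCR copies as separate molecules, and it says nothing of the difference between mice. Levels are in TPM (a transcript's share of the library after division by its length), which corrects for transcript length and allows genes to be ordered. In bulk liver RNA, fewer cells of a type and less RNA per cell cannot be told apart.

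The urea cycle converts ammonia, released when amino acids are broken down, into urea for excretion. Its initial steps, by carbamoyl phosphate synthetase and ornithine transcarbamylase, take place in the mitochondrial matrix of hepatocytes, and its later steps in the cytosol. Hepatocytes around the portal vein run the cycle, while a narrow layer around the central vein captures the remaining ammonia as glutamine. Inherited defects of the enzymes and of the ornithine carrier cause hyperammonaemia or a build-up of cycle intermediates.

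The 9 transcripts differ in base composition, and the ratios below moved with it, so the start of the coding sequence is shown for 3 of them. *Otc* had the lowest GC content of the 9 transcripts, *Nags* the highest and *Glul* an intermediate one. Each line gives the initial 90 coding bases, 5′ to 3′, on the + strand of mm10 in the GENCODE M21 annotation, with G and C in capitals. The runs are at chrX:10252437-10264808 (*Otc*, spanning 2 coding exons with an intron between them), chr1:153902947-153903036 (*Glul*) and chr11:102145587-102145676 (*Nags*), the last 2 within 1 coding exon each.
Otc: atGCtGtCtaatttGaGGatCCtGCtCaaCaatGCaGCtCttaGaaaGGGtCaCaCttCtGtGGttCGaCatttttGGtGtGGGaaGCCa
Glul: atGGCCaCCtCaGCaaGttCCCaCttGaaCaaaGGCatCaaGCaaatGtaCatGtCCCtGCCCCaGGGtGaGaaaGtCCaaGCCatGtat
Nags: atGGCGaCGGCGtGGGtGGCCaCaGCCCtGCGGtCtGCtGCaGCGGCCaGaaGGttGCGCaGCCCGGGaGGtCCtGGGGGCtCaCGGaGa
The shown runs were 45.6% (*Otc*), 50% (*Glul*) and 72.2% (*Nags*) G and C. Over the whole transcript, GC content was 39.0% for *Otc*, 46.6% for *Cps1*, 49.2% for *Glul* and 60.1% for *Nags*. At the third codon position it ranged from 44.9% (*Otc*) to 71.7% (*Nags*) among the 9 genes.

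Of the 9 genes, 5 were higher and 4 lower in the AAV-*Wee1-AS* library. Among all 15857 genes, 7847 were higher and 8010 lower. *Cps1*, *Otc* and *Slc25a15* were more than 2-fold higher, and 0 of 9 was more than 2-fold lower. Among all 15857 genes, 31% were past 2-fold in either direction, with 22.2% higher and 8.71% lower. The median log2 ratio was 0.27 over the 9 genes and -0.02 over all genes. The genes past 2-fold encode mitochondrial steps, namely the synthesis of carbamoyl phosphate, its joining to ornithine and the import of ornithine. With the trends of the ratio with GC content and length removed (curves fitted over all genes and subtracted from each ratio), 0 of the 9 was past 2-fold, and these genes were at 0.29 (*Cps1*), 0.38 (*Otc*) and 0.57 (*Slc25a15*). With the trends removed, 8 of the 9 genes were higher and 1 was lower, beside 7597 higher and 7620 lower among 15217 genes. *Slc25a15* was also under 2-fold in 5 other settings, at 0.824 to 0.996 on the log2 scale.

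*Cps1* encodes carbamoyl phosphate synthetase 1, which joins ammonia and bicarbonate in the mitochondrial matrix and sets the rate of the cycle. It had 63481 counts with AAV-GFP and 122243 with AAV-*Wee1-AS*, a level of 347 against 787 TPM. The log2 ratio was 1.21 (95% counting interval 1.20 to 1.22), a 2.31-fold higher value. All of these counts were assigned to the curated transcript of 5562 bases, and a predicted variant was at 0 in both libraries. The gene lies at chr1:67122426-67231267 (mm10).

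*Otc*, on the X chromosome at chrX:10252230-10321024, encodes ornithine transcarbamylase, which makes citrulline from carbamoyl phosphate and ornithine. Counts were 5871 with AAV-GFP and 15740 with AAV-*Wee1-AS*, or 74.9 and 237 TPM. With a log2 ratio of 1.69 (1.64 to 1.73), or 3.22-fold, it differed most of the 9 on scaled counts. With the trends with GC content and length removed, *Otc* was at 0.38 and *Asl*, at 0.94 as summed transcripts, differed most. With curated transcripts alone and the trends removed, *Asl* was at 0.08 and *Slc25a15*, at 0.61, differed most. The curated transcript took 92.7% and 92.4% of the *Otc* counts, so both libraries used the listed transcripts in nearly equal shares. Over 480 X-linked genes the median log2 ratio was 0.44 and the median transcript GC content 46.6%.

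*Slc25a15* encodes the mitochondrial ornithine carrier, which exchanges ornithine for citrulline across the inner membrane. It had 7896 and 13437 counts, or 69.1 and 139 TPM. The log2 ratio of 1.03 (0.99 to 1.07) had an interval that reached below the 2-fold limit. The intervals of *Cps1* and *Otc* lay wholly above it, as did those of 16% of all genes. The curated transcript of 3455 bases held 90.3% of the *Slc25a15* counts with AAV-GFP and 90.7% with AAV-*Wee1-AS*.

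*Nags*, the remaining gene of the matrix part of the cycle, encodes N-acetylglutamate synthase. Its product is the obligate activator of carbamoyl phosphate synthetase 1. *Nags* had the lowest level of the 9 genes in both libraries, with 3586 counts (51.5 TPM) in AAV-GFP and 2581 counts (43.7 TPM) in AAV-*Wee1-AS*. Its log2 ratio was -0.21 (-0.28 to -0.14), opposite in sign to that of *Cps1*. The level of *Cps1* was 6.73 times that of *Nags* in AAV-GFP and about 18 times in AAV-*Wee1-AS*. With the trends with GC content and length removed, the order of their log2 ratios was reversed (0.55 for *Nags* and 0.29 for *Cps1*).

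**Figure D1:**
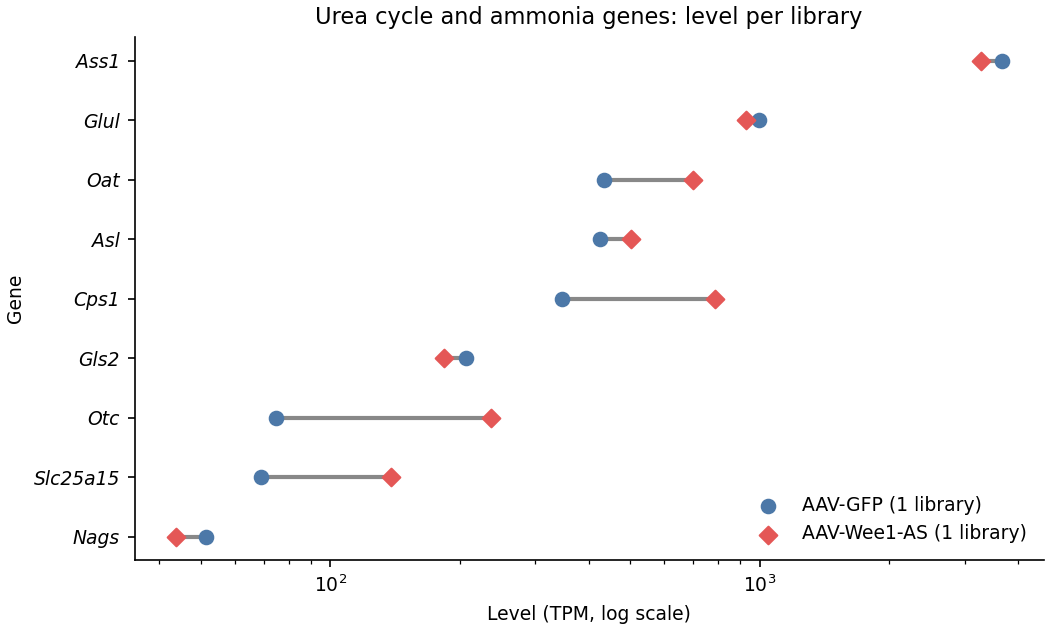
Level of each of the 9 genes in TPM (x axis, log scale) in the AAV-GFP library (circles) and the AAV-*Wee1-AS* library (diamonds), 1 library each, with a grey line joining the values of a gene. *Cps1*, *Otc* and *Slc25a15* have the longest lines, while *Ass1*, the most abundant gene, went from 3675 to 3282 TPM.

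*Ass1* and *Asl*, which encode cytosolic enzymes of the cycle, differed less than 2-fold. *Ass1* encodes argininosuccinate synthetase, which joins citrulline and aspartate. It had 197420 counts with AAV-GFP and 149390 with AAV-*Wee1-AS*, and it led the 9 genes in level with 3675 and 3282 TPM. Its log2 ratio was -0.14 (-0.15 to -0.13). The level of *Ass1* was 10.6 times that of *Cps1* in the AAV-GFP library and 4.17 times in the AAV-*Wee1-AS* library. Here too the order was reversed with the trends removed, where *Ass1* was at 0.49 and *Cps1* at 0.29.

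*Asl* encodes argininosuccinate lyase, which splits argininosuccinate into arginine and fumarate. Its 24472 and 24574 counts gave 424 and 502 TPM and a log2 ratio of 0.27 (0.24 to 0.30). This value was a sum over transcripts that went in opposite directions. The curated transcript had 4897 counts with AAV-GFP and 2721 with AAV-*Wee1-AS*, a log2 ratio of -0.58. A predicted transcript of 1629 bases had 12416 and 13031 counts, and another of 1948 bases had 7159 and 8822. The predicted transcript of 1629 bases thus held 50.7% of the *Asl* counts in AAV-GFP and 53.0% in AAV-*Wee1-AS*. These shares were assigned by the authors' quantification among overlapping transcripts, and with curated transcripts alone the ratio of *Asl* was -0.54.

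*Oat* encodes ornithine aminotransferase, a mitochondrial enzyme that links ornithine to glutamate and proline. It had 30802 and 42062 counts, or 434 and 699 TPM, with a log2 ratio of 0.71 (0.69 to 0.73).

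The genes of glutamine breakdown and synthesis were both slightly lower in the AAV-*Wee1-AS* library on scaled counts. *Gls2* encodes the liver glutaminase, which supplies ammonia to the periportal cycle. It had 16759 and 12681 counts, or 207 and 185 TPM, and a log2 ratio of -0.14 (-0.17 to -0.11). Its main curated transcript took 94.7% and 93.1% of the counts, and a minor variant had 126 counts with AAV-GFP and 0 with AAV-*Wee1-AS*. *Glul* encodes glutamine synthetase, which marks the layer of hepatocytes around the central vein. It had 92143 and 72726 counts, or 997 and 928 TPM, and a log2 ratio of -0.08 (-0.09 to -0.06). *Glul* was 4.82 times the level of *Gls2* in AAV-GFP and 5.03 times in AAV-*Wee1-AS*. With the trends removed, *Gls2* changed sign (0.48) and *Glul* stayed below 0 (-0.21), so the order of their log2 ratios was reversed.

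In order of level, the AAV-GFP library ran *Ass1*, *Glul*, *Oat*, *Asl*, *Cps1*, *Gls2*, *Otc*, *Slc25a15* and *Nags*. In the AAV-*Wee1-AS* library *Cps1* passed *Oat* and *Asl*, and *Otc* passed *Gls2*. Without replicates, no neighbours in this order can be set against a spread. The summed level of the 6 mitochondrial genes (*Cps1*, *Otc*, *Nags*, *Slc25a15*, *Gls2* and *Oat*) was 1183 TPM with AAV-GFP and 2090 with AAV-*Wee1-AS*. That of the 3 cytosolic genes (*Ass1*, *Asl* and *Glul*) was 5096 and 4712 TPM. The median log2 ratio of the mitochondrial genes, with a median GC content of 47.5%, was 0.87 on scaled counts and 0.43 with the trends removed. For the cytosolic genes, with a median GC content of 54.7%, it was -0.08 and 0.49. This grouping, by textbook location, was made after the values were seen. Together the 9 genes took 0.798% of all counts in AAV-GFP (exact binomial 95% interval 0.795 to 0.800) and 0.947% in AAV-*Wee1-AS* (0.945 to 0.950). Of these counts, *Cps1* alone held 63481 of 442430 in AAV-GFP and 122243 of 455434 in AAV-*Wee1-AS*, so the higher share rests largely on this gene.

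**Figure D2:**
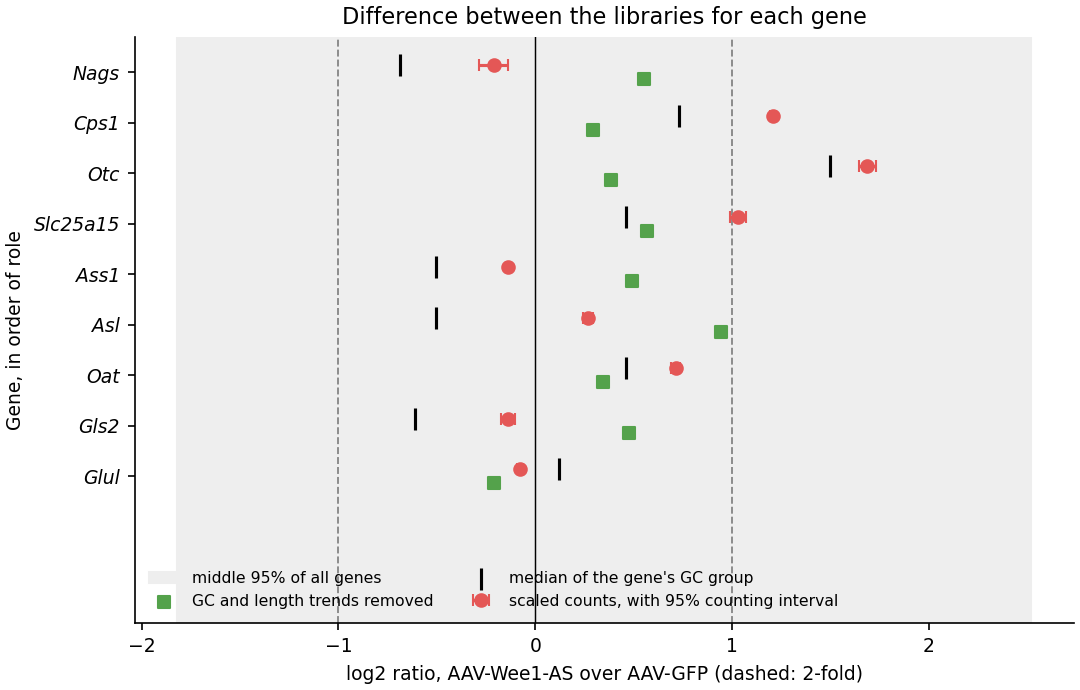
log2 ratio of AAV-*Wee1-AS* over AAV-GFP (x axis) for each gene, as scaled counts with the 95% counting interval (circles) and with the trends with GC content and length removed (squares). Black ticks are the median of the GC group of the gene, the grey band holds the middle 95% of all genes (-1.82 to 2.52), and dashed lines mark 2-fold. 3 circles are past the upper 2-fold line and no square is past either line.

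Over all genes, the ratio moved with the GC content of the transcript. Among the 15217 genes with a known GC content, Spearman's rho between the ratio and GC content was -0.69 across genes, which share the libraries and are not independent. Over the 9 genes it was -0.93, as a description. The genes were divided into 10 equal groups by GC content. In the group with the lowest GC content (31.2% to 42.2%), which held *Otc*, 68.9% of genes were more than 2-fold higher and the median log2 ratio was 1.50. In the third group, which held *Cps1*, the share was 37.2% and the median 0.73. In the fourth group, which held *Slc25a15* and *Oat*, they were 26.1% and 0.46. In the group with the highest GC content, which held *Nags*, 1.12% of genes were more than 2-fold higher, 20.6% were more than 2-fold lower, and the median was -0.69.

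Set against the genes of like GC content, the values of 8 of the 9 genes, as summed transcripts, were above the median of their group, and that of *Glul* was below it (-0.08 against 0.12). With curated transcripts alone the count was 7, as *Asl* was then also below its group (-0.54 against -0.46). In the group of *Cps1*, 30.8% of the genes had a higher ratio than *Cps1*. For *Otc* this share was 40.9%, for *Slc25a15* 25.2%, for *Ass1* 22.4% and for *Asl* 8.88%. The share of *Asl*, whose transcript had a GC content of 55.5%, was 58.4% with curated transcripts alone.

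A smooth trend of the ratio with GC content and length was then subtracted for every gene. With the trends removed, 0 of the 9 genes was past 2-fold in either direction, against 6.53% of all genes higher and 7.54% lower. *Asl* was at 0.94 as summed transcripts and at 0.08 with curated transcripts alone, so its place among the genes rests on the predicted transcripts. *Slc25a15* was at 0.57, *Nags* at 0.55, *Ass1* at 0.49 and *Gls2* at 0.48. *Otc* was at 0.38, *Oat* at 0.35 and *Cps1* at 0.29. Only *Glul* was below 0, at -0.21. *Ass1*, *Gls2* and *Nags* thus changed sign, and the order of the genes was another one. The median over the 9 genes was 0.27 before and 0.48 after the trends were removed, while that of all genes was -0.02 and, with the trends removed, -0.000957. All 9 values lay within the middle 95% of all genes on this scale (-1.75 to 1.49). With 1 library per group, a difference between libraries in how well transcripts of each base composition were read and a difference between the groups cannot be told apart.

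**Figure D3:**
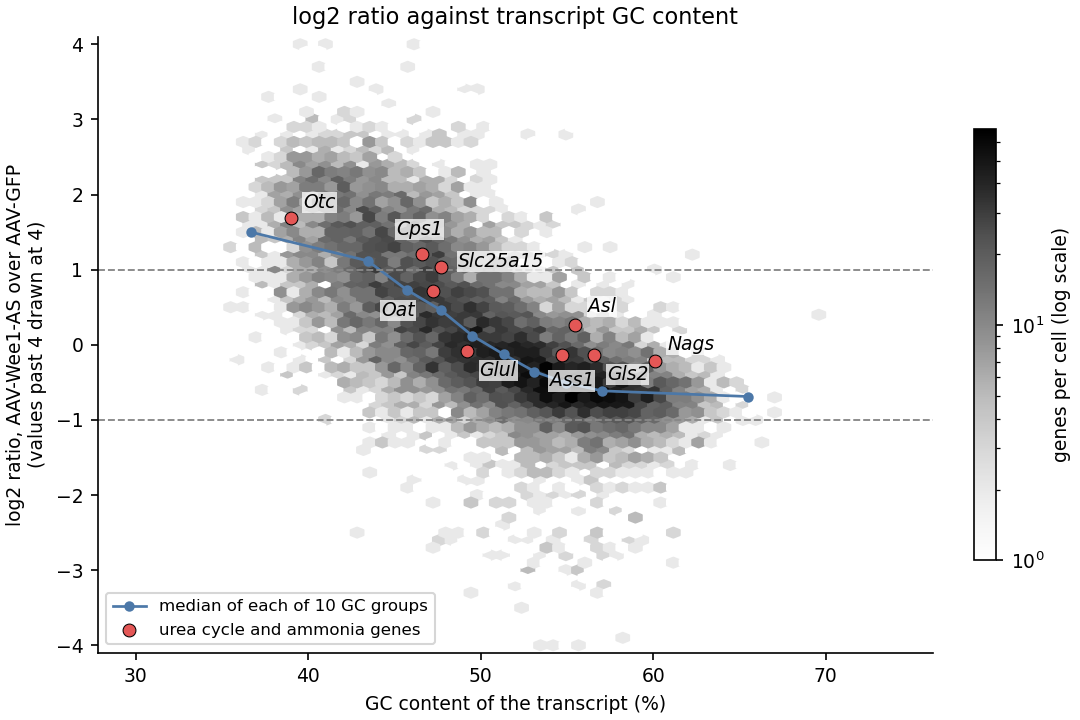
log2 ratio of AAV-*Wee1-AS* over AAV-GFP (y axis) against GC content of the transcript (x axis, %) for 15217 genes, shaded by number of genes (log scale), with the 9 genes named in red and the medians of 10 GC groups as a blue line. *Otc*, at 39.0%, is the highest red point and *Nags*, at 60.1%, the lowest, and only *Glul* lies below the line.

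Promoter sequences of RefSeq (GRCm38.p6) matched 6 of the 9 genes by symbol, with 7 windows. No promoter entry was matched for *Cps1*, *Asl* and *Gls2*. The windows of *Otc* and *Slc25a15* are shown as those of the genes past 2-fold, 5′ to 3′ in the direction of the gene. That of *Otc* is chrX:10252055-10252229 (+ strand, 175 bases, up to the start of the earliest listed transcript), and that of *Slc25a15* chr8:22398622-22398871 (− strand, 250 bases). Capitals mark GGGCGG, the core of an Sp1 site.
Otc: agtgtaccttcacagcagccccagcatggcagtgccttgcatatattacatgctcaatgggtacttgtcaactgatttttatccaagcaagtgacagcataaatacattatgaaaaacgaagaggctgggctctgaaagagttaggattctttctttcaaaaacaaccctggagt
Slc25a15: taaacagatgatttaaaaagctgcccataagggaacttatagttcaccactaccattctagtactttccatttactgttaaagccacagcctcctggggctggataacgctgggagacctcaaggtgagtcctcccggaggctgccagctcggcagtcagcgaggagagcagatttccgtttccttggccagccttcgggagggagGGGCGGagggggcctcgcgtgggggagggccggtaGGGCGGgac
Motifs were searched on both strands in the 250 bases before each start, and their share is given over all 32851 windows of this length. The TATA box was searched as TATAAA (in 12.4% of windows) and the CCAAT box by its name letters (33.9%). The Sp1 core was searched as GGGCGG (32.7%) and the core of the cAMP response element as TGACG (17.8%). No 2 of these motifs overlapped in the shown windows. The full *Otc* window of 250 bases held 0 of the 4, and the shown *Slc25a15* window held 2 copies of GGGCGG and no other. A second *Slc25a15* window held 5 copies of it. *Nags* also held 2 copies of GGGCGG, *Glul* 1 copy with 2 of CCAAT, *Ass1* 1 copy of GGGCGG, and *Oat* 2 copies of CCAAT. The 175 bases shown for *Otc* were 41.7% G and C. Over the full 250 bases, the *Otc* window was 43.6% and that of *Ass1* 75.6%, beside a median of 52.4% over all windows. A match is a description of the letters and not a bound site.

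*Slc25a2*, a second ornithine carrier closely related to *Slc25a15*, had 0 counts in both libraries. Of other genes that overlap the loci, *Spryd4* shares 97 bases with *Gls2* and had 1600 and 1054 counts, *Gm11586* overlaps *Nags* and had 56 and 43, and *Mir8114* lies within *Glul* and had 2 and 2. Whether the counting used strand is not stated in the sources used here.

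Carriers and transporters of ammonia, urea and the cycle's amino acids made a list of 22 genes, of which 16 passed the count filter. Of these, 7 were higher and 9 lower, with 3 past 2-fold in each direction and a median log2 ratio of -0.19. Beside this list and those below stand 22.2% of all genes more than 2-fold higher and 8.71% more than 2-fold lower. With the trends removed these shares were 6.53% and 7.54%, and the list had 6 genes higher and 10 lower (median -0.10). *Slc25a13*, which encodes citrin, the aspartate and glutamate carrier that supplies aspartate to argininosuccinate synthetase, had 9683 and 12091 counts (log2 ratio 0.58), and 0.08 with the trends removed. *Slc7a2*, a cationic amino acid transporter that takes up arginine and ornithine, had 8697 and 21552 counts (1.57), and 0.03 with the trends removed. *Slc1a2*, a glutamate transporter of pericentral hepatocytes, had 4042 and 9800 counts (1.54), and 0.78 with the trends removed. *Aqp8*, a water channel that also passes ammonia, was lower, with 25860 and 6809 counts (-1.66), and remained more than 2-fold lower with the trends removed (-1.19). *Aqp7*, which passes glycerol and urea, had 94 and 7 counts (-3.18), and -3.22 with the trends removed.

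Enzymes of glutamate, aspartate, alanine, glycine and bicarbonate made a list of 19 genes, all measured. Of these, 13 were higher and 6 lower, 2 were more than 2-fold higher and 0 more than 2-fold lower, with a median of 0.21. With the trends removed, 11 were higher and 8 lower, with a median of 0.10. *Glud1*, glutamate dehydrogenase, which releases ammonia in the matrix, had 43236 and 53474 counts (0.57), and 0.25 with the trends removed. *Car5a*, the mitochondrial carbonic anhydrase that supplies bicarbonate to carbamoyl phosphate synthetase, had 2358 and 2592 counts (0.40), and 1.19 with the trends removed. *Got1* was at 0.63 and *Got2* at -0.41, the cytosolic and mitochondrial aspartate aminotransferases. With the trends removed they were at 0.97 and 0.10, so the sign of *Got2* turned. *Dld*, a subunit of the glycine cleavage system and of several dehydrogenases, had 1499 and 3779 counts (1.60), and 0.34 with the trends removed.

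Enzymes of proline, ornithine, arginine and polyamines made a list of 23 genes with a median GC content of 56.7%. Of these, 6 were higher and 17 lower, with 2 past 2-fold in each direction and a median of -0.35, which was 0.05 with the trends removed. *Azin1*, which encodes an inhibitor of antizyme, had 1195 and 4585 counts (2.20), and 0.55 with the trends removed. *Amd1*, which encodes the decarboxylase that feeds polyamine synthesis, had 531 and 1384 counts (1.64), and 0.33 with the trends removed. Its reads may be split with the near-identical copy *Amd2*. *Odc1*, ornithine decarboxylase, was at 0.36 with 2979 and 3188 counts, and at 0.66 with the trends removed.

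Deacylases and transcription regulators made a list of 26 genes. Of these, 13 were higher and 13 lower, 7 more than 2-fold higher and 0 more than 2-fold lower, and the median was 0.01. Among all genes, 22.2% were more than 2-fold higher and 8.71% more than 2-fold lower. With the trends removed, 18 of the list were higher and 8 lower (median 0.12). *Sirt5*, a mitochondrial deacylase that acts on carbamoyl phosphate synthetase 1, had 1346 and 755 counts (-0.57). *Sirt3* had 6044 and 3391 counts (-0.57). With the trends removed *Sirt5* was at -0.24 and *Sirt3* at 0.11. The genes past 2-fold with their whole interval were *Nr3c1*, the glucocorticoid receptor, with 671 and 3025 counts (2.43), *Creb1*, a factor of the cAMP response, with 96 and 404 (2.31), *Apc*, a negative regulator of Wnt signalling, with 231 and 950 (2.29), *Crebl2* with 804 and 1891 (1.50) and *Sp1* with 589 and 1357 (1.46). Their transcripts had a GC content of 39.6% to 48.1%. With the trends removed, *Crebl2* alone of the list remained past 2-fold (1.20), beside 6.53% of all genes higher and 7.54% lower by that limit. *Cebpa* (-0.67), *Hnf4a* (-0.06) and *Gcgr*, the glucagon receptor (-0.49), were not past 2-fold. With the trends removed their signs turned, to 0.05, 0.11 and 0.25.

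Zonation lists placed the 9 genes beside other genes of the same hepatocytes. Of 20 periportal genes, 8 were higher and 12 lower, with 2 past 2-fold in each direction and a median of -0.20. With the trends removed, 10 were higher and 10 lower, with a median of -0.03. *Apoa4*, an apolipoprotein, went from 335069 to 44701 counts (-2.64) and *Hsd17b6*, a steroid dehydrogenase, from 16810 to 5961 (-1.23). Both remained more than 2-fold lower with the trends removed (-1.86 and -1.23). *Ctsc*, a lysosomal protease, had 1934 and 3679 counts (1.19), and -0.33 with the trends removed. *Etnppl*, a phospholyase of phosphoethanolamine, had 1468 and 2694 counts (1.14), and 0.28 with the trends removed. Of 22 pericentral genes, 15 were higher and 7 lower, with 4 more than 2-fold higher, 1 more than 2-fold lower and a median of 0.36. With the trends removed, 15 were again higher and 7 lower, with a median of 0.24. *Cyp7a1*, the rate-limiting enzyme of bile acid synthesis, had 486 and 2362 counts (2.54), and *Rgn*, which encodes regucalcin, 11728 and 44209 (2.18). Both remained past 2-fold with the trends removed (1.00 and 1.10). *Gstm3*, of a family of similar glutathione transferases that can share reads, had 13001 and 1842 counts (-2.55), and -2.02 with the trends removed. *Glul* itself, with its ratio of -0.08, stood below the pericentral median.

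**Figure D4:**
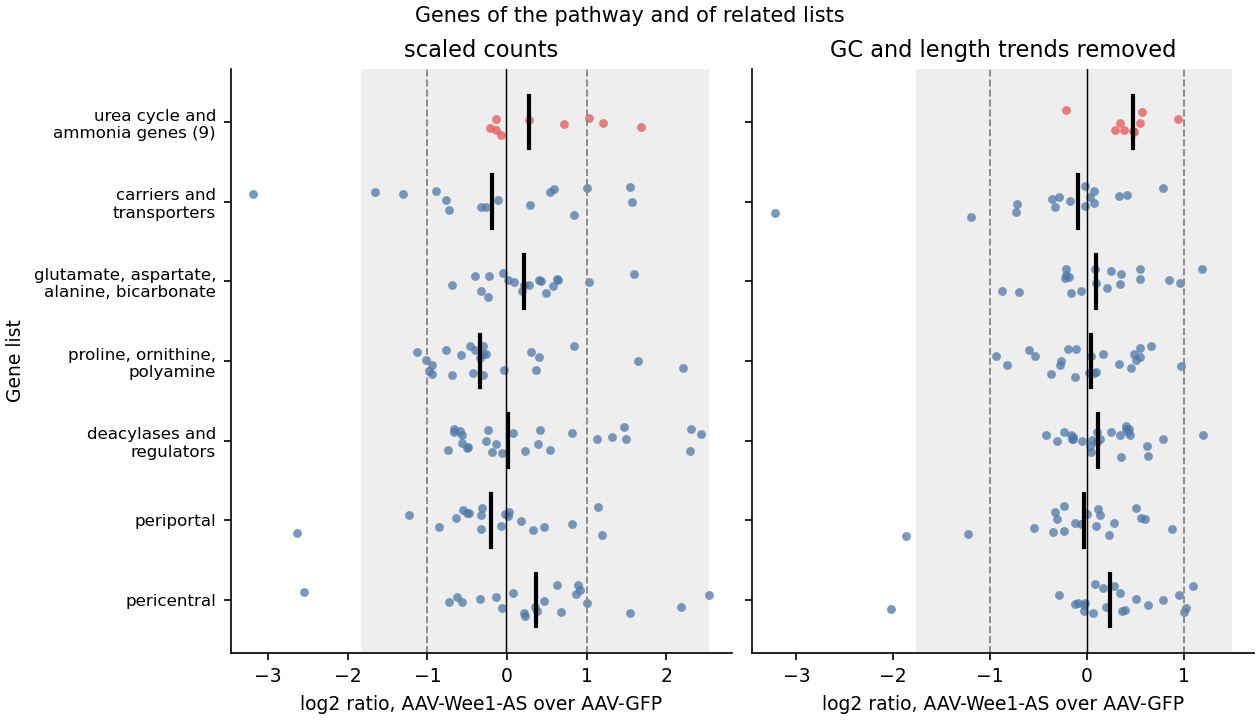
log2 ratio of AAV-*Wee1-AS* over AAV-GFP (x axis) for the 9 genes (red) and 6 related lists (blue), 1 point per gene past the count filter, spread vertically at random, as scaled counts (left) and with the GC and length trends removed (right). Thick bars are list medians, the grey band holds the middle 95% of all genes, the thin line is the median of all genes and dashed lines mark 2-fold. The median of the 9 genes is 0.27 on the left and 0.48 on the right.

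Both libraries held the defining genes of hepatocytes. The 7 hepatocyte markers, *Cps1* among them, summed to 82544 and 88189 TPM, with ratios from -0.62 (*Ttr*) to 1.82 (*Apob*). *Alb* alone held 37459 and 53289 TPM of these sums. Of the 7 markers, 3 were higher and 4 lower (median -0.06), and with the trends removed 5 were higher and 2 lower (median 0.11). Summed markers were 372 and 285 TPM for Kupffer cells and macrophages (6 genes, ratios -0.88 to 1.52), 115 and 117 for stellate cells (6 genes, -2.32 to 1.46), and 126 and 104 for endothelial cells (5 genes, -0.50 to 0.55). They were 3.77 and 3.59 TPM for cholangiocytes (4 genes, -0.67 to 0.79), 3.07 and 2.04 for lymphocytes (4 genes, of 67 counts or fewer each) and 12.2 and 6.27 for neutrophils (3 genes, -1.31 to -0.42). All 4 kidney markers were at 0 in both libraries. Of the intestine and pancreas markers, *Fabp2* (5088 and 4717 counts) and *Cela1* (616 and 741 counts) were present, *Vil1* had 3 and 5 counts, and *Lct*, *Cpa1* and *Pnlip* were at 0. Single markers moved in both directions. *Vsig4* (649 and 1550 counts, log2 ratio 1.52) and *Timd4* (175 and 388, 1.40) of Kupffer cells were higher, and 0.86 and 0.63 with the trends removed. *Cd5l* (13953 and 6876, -0.76) and *Cd68* (1701 and 770, -0.88) of the same list were lower, and -0.53 and -0.36 with the trends removed. Of the 6 genes of this list, 3 were higher and 3 lower on either scale. *Cd5l* alone held 208 and 121 TPM of the sums of this list. Of the stellate cell list, *Lrat* had 267 and 617 counts (1.46) and *Col1a1*, a fibrillar collagen chain, 3620 and 603 (-2.32). With the trends removed these were at -0.10 and -2.08. All 6 stellate genes were then lower (median -0.48), against 3 higher and 3 lower on scaled counts. The lymphocyte genes *Ms4a1* (0 and 23 counts) and *Cd8a* (31 and 4) differed in opposite directions. The part of other cell types in the ratios of the 9 genes was not tested.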

How the data were processed

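Poly-A liver RNA of 2 libraries, 1 per group, was sequenced on a NovaSeq from a stranded kit. Per the labels' processing notes, Trimmomatic 0.38, HISAT2 2.1.0, SAMtools 1.9 and StringTie 2.1.3b were used with build mm10; the notes give no order or settings. The authors deposited, for 129299 RefSeq transcripts, an estimated count (not normalized, proportional within a library to FPKM times length, as whole numbers), an FPKM value and a TPM value. Because these are shares assigned among overlapping transcripts, a gene's sum is firmer than a transcript's count. No value columns were left unused.

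Counts were summed per gene symbol and scaled by TMM (edgeR 4.0.16 in R 4.3.3, with factors of 1.02 (AAV-GFP) and 0.980 (AAV-*Wee1-AS*)). A prior count of 2 entered each log2 ratio. The filter required 10 or more counts in either library. A gene past 2-fold was called, with no p-value. Counting intervals were exact (Clopper-Pearson). The log2 ratios, the counts past 2-fold and the trend removal were tested on simulated counts. GC content came from GENCODE M21 transcripts, 13773 by RefSeq match and otherwise by symbol (96.0% of kept genes). Lowess trends (statsmodels 0.14.6, span 0.3, 5 cycles) with GC content and length were subtracted as an alternative. Figures were drawn with matplotlib 3.10.9.

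The 9 genes and all lists were chosen with earlier results of these data known. Named genes were all 9, list genes whose whole interval was past 2-fold, and *Slc25a2*. Some items are not reported here, and every summary leaves them out. Genes named outside this rule, such as *Glud1*, *Car5a* and *Sirt5*, were chosen for their roles after their values were seen. *Cd5l* and *Cd68* were named to show the lower genes of their list. Alternatives were other scalings (DESeq2 1.42.0 size factors, upper quartile, library totals with or without the 20 most abundant genes) and a prior count of 0.5. Further ones were FPKM or TPM with a pseudocount of 1 and other choices of transcripts, also with the trends removed. Other count filters were none, 10 or more in both libraries, and 50 or more in at least 1 library.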

Additional observations from a re-analysis of the deposited data

How the results depend on the processing

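No paired analysis was possible because there was 1 library per group, and leaving out a library leaves no comparison. The median log2 ratio of the 9 genes (0.27) was above 0 under 11 of the 12 alternatives run and -0.037 with curated transcripts alone, where the lower ratio of *Asl* moved the middle gene. It was 0.21 with library totals, 0.063 with upper quartile scaling, 0.22 without the 20 most abundant genes, 0.22 from FPKM, 0.24 from TPM, 0.33 with the most abundant transcript of each gene, 0.48 with the trends removed, 0.53 with trends removed by the GC content of the longest transcript and 0.41 with curated transcripts and the trends removed, the last pair being alternatives chosen after seeing the data. Upper quartile scaling moved the median of all genes to -0.22, so each value shifted with it. *Slc25a15* fell under the 2-fold limit with library totals, upper quartile scaling, totals without the 20 most abundant genes, FPKM and TPM, while *Cps1* and *Otc* stayed above it except when the trends were removed. The number of the 9 genes past 2-fold was then 0 in each of these fits. *Ass1*, *Gls2* and *Nags* were above 0 in 3 of 12 alternatives, all of them trend removals, reaching 0.53, 0.52 and 0.58. *Asl* ranged from -0.54 (curated transcripts) to 0.99, and *Glul* from -0.28 to -0.04. The number of all genes past 2-fold, 4908 in the main setting, was 1336 from FPKM and 2046 from TPM, which shrink the ratios of low genes by the pseudocount. It was 2141 or 2166 with the trends removed, and 2678 with curated transcripts and the trends removed. Other alternatives raised it, to 5170 (32.6% of the genes) with upper quartile scaling, 5781 (36.6%) with the most abundant transcript alone and 6894 (34.0%) with no count filter. The share of the 9 genes was 1.04% and 1.25% of the totals without the 20 most abundant genes, and 0.628% and 0.680% of TPM, in AAV-GFP and AAV-*Wee1-AS*. The medians of the deacylase and regulator list (-0.20 to 0.51) and of the proline and polyamine list (-0.55 to 0.08) changed sign between alternatives. Depth was not limiting for the 9 genes, whose lowest count was 2581, but the spread between mice was not measured.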
